A study of Mus musculus with 12 samples.

Results

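The genes described here encode the complement, coagulation and fibrinolysis proteins of plasma, most of which hepatocytes secrete into the blood. They were chosen by name, as a list of 39 genes, with earlier results of these data known. Of these, 36 were named in the deposited table, each by 1 probe set, out of 15780 named genes, and C3, Kng1 and Cpb2 were not analysed here. A filter on low signal, applied to the mean over all arrays, kept 35 of the 36 and 9496 genes in all, and left out Klkb1, the gene of plasma prekallikrein.

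RNA from primary hepatocytes of 8-week-old male C57BL/6J mice was hybridised to 12 Affymetrix arrays in 4 groups of 3. The mice were wild type or knockout for Cnot6l, the gene of a catalytic subunit of CCR4-NOT that removes poly(A). The groups were wild-type input and knockout input (total RNA) and wild-type IP and knockout IP (RNA precipitated with an antibody against CNOT6L from the other portion of the same preparation), with the knockout IP as the study's negative control. The labels do not name the knockout allele, and they call the replicates biological without naming the animals. In the fit on group means the p-values measure the spread between these preparations. In fits with a block they measure the spread left after differences between preparations, or between replicate numbers, are removed.

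Complement is activated through the classical, lectin and alternative pathways, which converge on cleavage of C3 and on assembly of the membrane attack complex from C5 to C9. Coagulation begins when tissue factor, a membrane protein outside the circulation, binds factor VII, and it ends in thrombin, which turns fibrinogen into fibrin. Plasmin then dissolves the clot. CCR4-NOT shortens the poly(A) tails of mRNAs, a step that precedes their decay.

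The single Cnot6l probe set stood at 8.44, 9.51 and 9.11 in wild-type input and at 9.12, 9.23 and 9.34 in the inputs labelled knockout, a difference of 0.21 (adjusted p = 1.0 by limma with and without a block on the number). It was thus not lower under the knockout label. Whether it lies in the deleted sequence is not known here, and every comparison between genotypes below rests on the labels. Array medians ran from 6.31 to 6.45 in log2 units, the scale of all values here. Values spread less within an IP array (mean SD 2.35 for wild type, 2.27 for knockout) than within an input array (2.55 and 2.57). From input to IP, the 3′ minus 5′ signal of the Gapdh control widened by 0.85 to 1.95 units over the 6 preparations, and the poly-A control transcripts were 4.47 to 5.99 units higher. The part of these differences in the results on IP against input was not tested. All 7 named hepatocyte markers of a list of 10 passed the filter, and their summed signal lay between 15.74 and 16.26 in the inputs. Of 10 Kupffer cell and macrophage markers 8 were below the filter, among them Adgre1 and Clec4f. So were 6 of 10 stellate cell markers, among them Lrat and Pdgfrb. The 2 Kupffer cell and macrophage markers that passed were Cd68, at 11.52 to 12.27 in the inputs, and Csf1r, at 5.38 to 6.06. The filter kept 4 stellate cell markers, 4 of 10 sinusoidal endothelial markers and 3 of 6 named cholangiocyte markers. Their lists had summed input signals of 8.56 to 11.03, 8.58 to 9.64 and 8.21 to 9.73 in that order.

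In wild type, the mRNAs of complement and coagulation factors were mostly weaker in the CNOT6L precipitate than in the input. Of 35 members 29 had a difference below 0, against 58.4% of all genes tested, and the median was -0.56 log2 units, against -0.11 over all genes. Without wild-type input 3 the members' median was -0.26. In 24 members the IP was lower in 3 of 3 preparations, which held for 33% of all genes. The groups did not overlap, with the IP lower, in 7 members (20%) and in 7.59% of all genes. The summed signal of the 10 Kupffer cell and macrophage markers was also lower in the wild-type IPs (10.65 to 11.17) than in the inputs (11.72 to 12.11). Most of this sum is Cd68, at 11.61, 12.04 and 11.64 in the wild-type inputs. Cd68 was lower in the IP in 6 of 6 preparations (-1.15 in wild type and -1.02 in knockout). The other markers had a higher mean in the IP, except Cd163 in wild type and Lyz2 in knockout. Of these others all but Csf1r are below the filter, and Vsig4 was higher in 6 of 6 preparations. The hepatocyte sum was 15.80 to 16.26 in the wild-type inputs and 15.38 to 16.03 in the IPs. The part of the cell types in the members' differences was not tested.

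The spread between preparations was large, and the limma fit with the means of the 4 groups called 0 members in either direction (background 0.105% higher and 0% lower), with 6 members lower at an unadjusted p under 0.05 (6.03% of all genes) and 0 higher (4.58%). With the preparation as a replicate block, which compares each IP with the input of the same cells, 7 members were lower and 0 higher (background 4.61% lower and 2.41% higher). They were Vtn, C4bp, F7, F2, F12, Plg and Cfb. With quantile normalization as well, 1 of the 7 passed, Vtn. Leaving out wild-type preparation 1 left F7 as the only call, and leaving out preparation 2 or 3 left 0.

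Vtn encodes vitronectin, which blocks insertion of the membrane attack complex and stabilises the plasminogen activator inhibitor PAI-1. Its signal was 11.66, 11.96 and 11.48 in the wild-type inputs and 10.53, 10.79 and 10.43 in the wild-type IPs. Every IP lay below every input, and the 3 preparations differed by -1.13, -1.17 and -1.05. The mean difference was -1.12 ± 0.20 (SE with the block), a 2.17-fold lower signal, with an adjusted p of 0.0211 with the block, and of 0.157 in the fit on group means. With quantile normalization and the block it was -0.96 (adjusted p = 0.0452). In the knockout the inputs were 11.37, 11.53 and 10.95 and the IPs 10.49, 10.47 and 10.42, again without overlap, a difference of -0.82 (adjusted p = 0.0480 with the block).

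C4bp encodes the C4b-binding protein, which inhibits the classical and lectin pathway convertase. It went from 10.12, 10.68 and 10.74 in the wild-type inputs to 8.79, 9.63 and 9.92 in the IPs. The groups did not overlap. The difference was -1.07 ± 0.22 (SE with the block). It had an adjusted p of 0.0289 with the block, and of 0.375 in the fit on group means. In the knockout it went from 10.03, 10.68 and 10.48 to 8.74, 10.06 and 9.59, and here the highest IP just passed the lowest input. The knockout difference was -0.93 (adjusted p = 0.0442 with the block).

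F7 encodes factor VII, the plasma protease that tissue factor binds. Its signal was 8.34, 10.27 and 8.90 in the wild-type inputs and 7.43, 8.13 and 6.23 in the IPs. It showed the largest decrease among the members, -1.91 ± 0.39 (SE with the block), or 3.75-fold. Its adjusted p was 0.0306 with the block, and 0.324 in the fit on group means. The groups did not overlap in either genotype. The decrease was smaller in preparation 1 (-0.91) than in preparations 2 and 3 (-2.13 and -2.67). The knockout gave almost the same values preparation by preparation, -0.86, -2.30 and -2.42, with a mean of -1.86 (adjusted p = 0.0369 with the block).

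**Figure D1:**
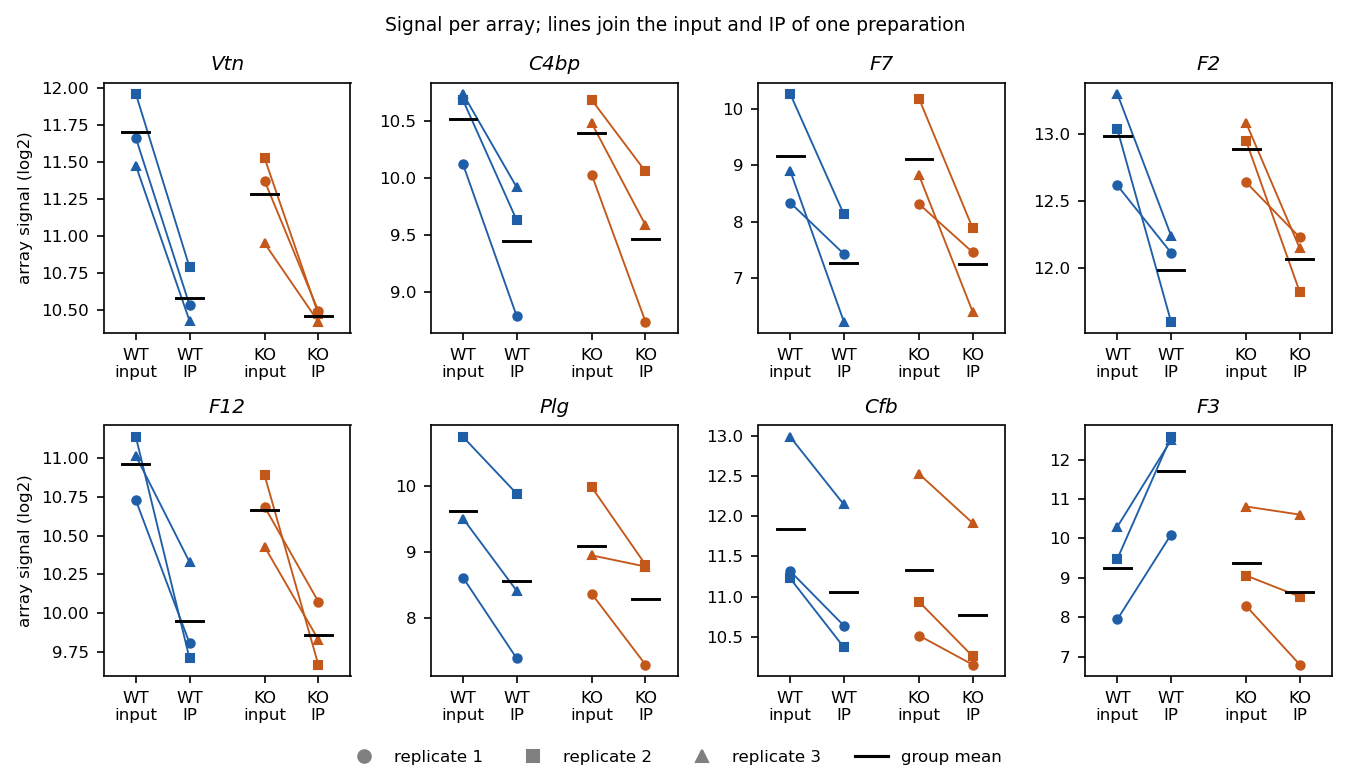
Array signal on a log2 scale of the 7 members called lower in wild-type IP with the replicate block, and of the tissue factor gene F3. Points are single arrays, lines join the input and IP of 1 preparation and black bars are group means (n = 3). Lines slope down in both genotypes for the 7 members, whereas those of F3 slope up in 3 of 3 wild-type preparations and down in 3 of 3 of the knockout.

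Vtn, C4bp and F7 were called lower in the IPs of both genotypes with the block. Their promoters are shown, from 250 bases before to 50 after the transcription start, as RefSeq gives them on GRCm38.p6. Each is written 5′ to 3′ in the direction of the gene, and capitals mark the letters GTTAAT on either strand, the core of sites for the hepatocyte factor HNF1.

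Vtn promoter, chr11:78498870-78499169, plus strand: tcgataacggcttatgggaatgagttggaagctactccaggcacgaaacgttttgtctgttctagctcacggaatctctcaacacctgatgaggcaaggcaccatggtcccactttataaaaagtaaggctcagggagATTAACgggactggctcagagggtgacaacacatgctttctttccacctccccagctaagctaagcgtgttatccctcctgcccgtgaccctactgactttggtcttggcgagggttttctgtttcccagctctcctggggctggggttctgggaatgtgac
C4bp promoter, chr1:130661569-130661868, minus strand: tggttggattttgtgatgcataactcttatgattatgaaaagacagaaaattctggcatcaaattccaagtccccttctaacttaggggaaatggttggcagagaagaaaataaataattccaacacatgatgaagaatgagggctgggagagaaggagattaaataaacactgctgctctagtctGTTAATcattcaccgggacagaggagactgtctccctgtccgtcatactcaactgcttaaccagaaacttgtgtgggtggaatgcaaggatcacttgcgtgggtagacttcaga
F7 promoter, chr8:13025784-13026083, plus strand: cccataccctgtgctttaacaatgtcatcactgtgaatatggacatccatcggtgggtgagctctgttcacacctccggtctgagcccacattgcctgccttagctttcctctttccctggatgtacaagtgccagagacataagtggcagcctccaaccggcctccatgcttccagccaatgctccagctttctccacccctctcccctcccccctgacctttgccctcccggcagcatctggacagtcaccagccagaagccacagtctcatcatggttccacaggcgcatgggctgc

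The match lies 112 bases before the start in Vtn, on the minus strand, and 64 bases before it in C4bp. The F7 window holds none. RefSeq promoters were matched to 29 of the 36 members, with 30 windows in all, since C8g has 2. Of these windows 10 (33.3%) held GTTAAT on either strand, against 7.1% of all 32851 promoter windows of the same length. The members with a match were C4bp, C8a, C8b, F13b, F2, Fga, Fgb, Hc, Proz and Vtn. TTGCNNAA, searched as a core of C/EBP sites, was in 26.7% of the members' windows and 10.8% of all. It lies in the windows of C9, F11, F9, Fga, Fgb, Hrg, Klkb1 and Serpinc1. The other motifs searched on both strands were CTGGGAA, an acute phase motif (20% of the members' windows and 11.1% of all), the TATA box TATAAA (13.3% and 13.6%) and CAAAGTCCA, an HNF4 site (0% and 0.475%). These shares describe the letters and do not show binding.

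The other 4 calls in wild type were spread over coagulation, fibrinolysis and the alternative pathway. F2, which encodes prothrombin, went from 12.62, 13.04 and 13.30 to 12.12, 11.60 and 12.24, a difference of -0.997 (adjusted p = 0.0476 with the block). F12, whose protein starts the contact pathway, went from 10.73, 11.14 and 11.01 to 9.81, 9.71 and 10.33, or by -1.01 (adjusted p = 0.0388 with the block). In both genes every IP was below every input. Plg, the gene of plasminogen, went from 8.61, 10.74 and 9.50 to 7.38, 9.88 and 8.41, or by -1.06 (adjusted p = 0.0387 with the block). Cfb, the gene of factor B of the alternative pathway convertase, went from 11.32, 11.23 and 12.98 to 10.64, 10.37 and 12.14, or by -0.79 (adjusted p = 0.0433 with the block). The groups of Plg and Cfb overlapped, and the decrease showed within each preparation. In the fit without the block these 4 had an adjusted p of 0.217 (F12), 0.249 (F2), 0.628 (Plg) and 0.723 (Cfb). In the knockout these 4 were also lower in the IP in every preparation, without passing. The knockout differences were -0.82 (F2), -0.81 (F12), -0.81 (Plg) and -0.55 (Cfb). With the block their adjusted p was 0.0775, 0.0695, 0.0805 and 0.107 in that order.

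Among the initiators of complement, Masp2, the lectin pathway protease that cleaves C4 and C2, had -0.72 (adjusted p = 0.0512 with the block). Its wild-type preparations varied little, with -0.67, -0.68 and -0.81, and so did those of the knockout, with -0.60, -0.64 and -0.64. Masp1, the protease that activates MASP2, was the only member higher in the IP in 6 of 6 preparations, a pattern found in 6.54% of all genes. Its differences were 0.16 in wild type and 0.55 in knockout, neither of which passed. The collectin genes Mbl1 (-0.50) and Mbl2 (-0.35) and C2 (-0.49) did not pass in wild type.

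The terminal complement genes had a median of 0.01 in wild type and 0.04 in knockout, with 3 of 6 below 0 in each genotype and 0 called. C9, whose protein forms the pore, had 0.32 ± 0.26 (SE with the block), C8a 0.27, C6 0.04 and Hc, the gene of C5, -0.02. C8b (-0.56) and C8g (-0.51) lay lower and did not pass. The regulators C4bp, Serping1 (C1 inhibitor, -0.58) and Cfi (factor I, -0.43) were below 0 in 3 of 3 preparations, and of these C4bp passed with the block.

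The 7 vitamin K-dependent genes had a median of -0.73 in wild type and -0.82 in knockout. They ranged from F7 to Pros1, the gene of protein S, a cofactor of protein C, which had 0.51 in wild type and 0.53 in knockout. Proc, the gene of protein C, had -1.19 without passing (adjusted p = 0.0882 with the block). F10 (-0.70) and Proz (-0.73), the neighbours of F7 in the RefSeq gene order, did not pass, and F9, the gene of factor IX, stood at 0.03. F5, the gene of factor V, had -0.05.

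In the contact system, F11 had -0.91 and Hrg, the gene of histidine-rich glycoprotein, -0.78, with 3 of 3 tested members below 0 in each genotype. Klkb1, below the filter and untested, had values of 4.84 to 6.62 in the wild-type inputs and 4.91 to 5.15 in the IPs. None of the 3 fibrinogen chain genes passed. Fgg had -0.04 ± 0.19, Fga -0.28 ± 0.20 and Fgb -0.37 ± 0.20 (SE with the block), and Fgb was lower in the IP in 6 of 6 preparations. F13b, the gene of the factor XIII carrier subunit, had -0.79 without passing. Of the thrombin inhibitors, Serpinc1 (antithrombin) had -0.72 and Serpind1 (heparin cofactor II) -0.06, neither passing. Serpinf2, which encodes the plasmin inhibitor antiplasmin, had -0.86 (adjusted p = 0.0782 with the block).

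In the preparations labelled knockout, the study's negative control for the antibody, most members were again weaker in the IP. Of 35 members 28 were below 0, against 65.9% of all genes, with a median of -0.42 against -0.21. Among the 26 other genes of these pathways that passed the filter, described below, 21 (80.8%) were below 0 in knockout. Their median was -0.37. In wild type 18 of these other genes (69.2%) were below 0, with a median of -0.29. Without knockout IP 1 the members' median was -0.24. The Kupffer cell and macrophage sum, mostly Cd68, was lower here too, with 10.96 to 11.20 in the IPs and 11.63 to 12.33 in the inputs. The other markers of that list, except Lyz2, had a higher mean in the knockout IP than in the input. Without the block limma called 0 members (background 0% in both directions). At an unadjusted p under 0.05, 7 were lower (8% of all genes) and 0 higher (2.97%). The groups did not overlap, with the IP lower, in 7 members and in 10.1% of all genes. With the block 3 were lower, Vtn, F7 and C4bp, and 0 higher (background 5.28% lower and 0.727% higher). With quantile normalization as well 0 passed, and F7 alone passed when knockout preparation 1 was left out, while 0 passed without preparation 2 or 3. Proz had the smallest unadjusted p without the block, with -1.65, and did not pass with it (adjusted p = 0.0536). Its preparations differed by -3.05, -1.16 and -0.72. Quantile normalization moved the median of all genes in this comparison from -0.21 to -0.04 and that of the members from -0.42 to -0.26.

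Across the 35 members, the differences of wild type and of knockout had r = 0.89 (Pearson) and rho = 0.91 (Spearman). Across all 9496 genes these were 0.67 and 0.69. The arrays are separate but share replicate numbers, and genes are not independent replicates. In 18 members (51.4%) the IP was below the input in 6 of 6 preparations, against 23.3% of all genes. Across all genes the difference in wild type was lower for genes of higher signal in the knockout inputs (r = -0.32), and across the members this r was -0.25. For the knockout difference against the wild-type inputs, r was -0.32 across all genes and -0.11 across the members.

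**Figure D2:**
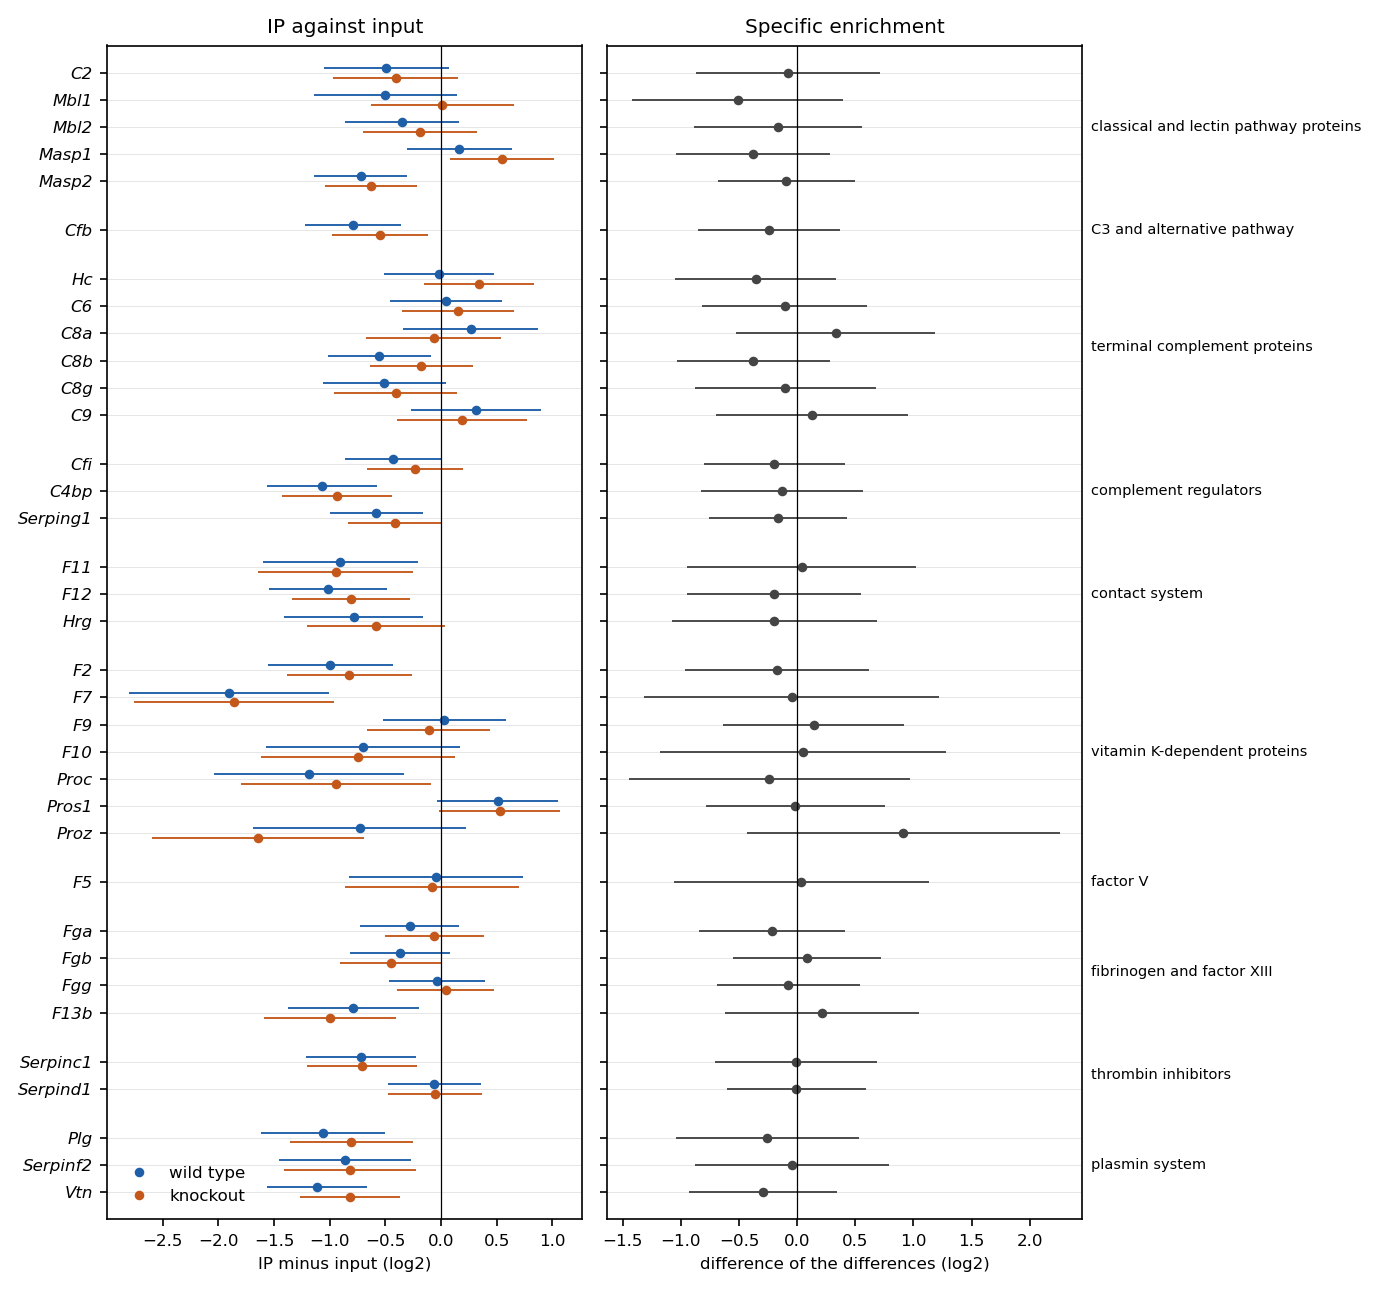
Left, IP minus input difference of the 35 tested members in wild type and knockout on a log2 scale, grouped by role. Right, the wild-type difference minus the knockout difference. Bars are 95% intervals of the limma fit with the preparation as a block. F7 is the lowest in both genotypes (-1.91 and -1.86), and every interval on the right includes 0.

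The comparison that takes the negative control into account, here called specific enrichment, is the IP minus input difference of wild type less that of the preparations labelled knockout. By limma 0 of 35 members passed without the block (background 0.0105% higher and 0% lower) and 0 with it (0.0211% higher and 0% lower). An unadjusted p under 0.05 was found for 0 members without the block (1.83% of all genes higher and 0.147% lower) and 0 with it (5.54% and 0.621%). The median was -0.10, against 0.05 over all genes, and 26 members were below 0 (44.2% of all genes). With quantile normalization the median was -0.21, against -0.03 over all genes, with 28 members and 53.3% of all genes below 0. The median was 0.07 without knockout input 1 or without wild-type input 3, and 0.01 without wild-type IP 1. The largest values were those of Proz, the gene of protein Z, with 0.91 (95% interval -0.43 to 2.26 with the block), and Mbl1 with -0.51 (-1.42 to 0.39). By smallest p the next were F13b (0.21) and C8a (0.33) above 0, and Masp1 (-0.38) and Vtn (-0.30) below it. Leaving out 1 array in turn, F13b ran from -0.28 to 0.97 and C8a from -0.49 to 1.27. Masp1 (-0.65 to -0.12) and Vtn (-0.42 to -0.13) stayed below 0. The value of Proz rests on knockout IP replicate 1, at 4.10 against 5.65 and 5.75 in the other knockout IPs, and it was 0.38 when that array was left out. Mbl1 had 7.58 in the same array, against 7.04 and 6.47, and its specific enrichment without it was -0.24. Vtn, C4bp and F7 were the 3 members called lower in both precipitates with the block. Their specific enrichment with the block was -0.30 (-0.93 to 0.34), -0.13 (-0.83 to 0.57) and -0.05 (-1.32 to 1.22) in that order. With the block the interval lay within 1 log2 unit (2-fold) of 0 in 21 of 35 members, against 39.9% of all genes, and without the block in 1 (6.53%).

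Setting the precipitates side by side also gave 0 calls. Wild-type IP against IP labelled knockout called 0 members without the block (background 0.253% higher and 0% lower) and 0 with the replicate number as a block (2.33% higher and 0.126% lower). Without the block 0 members had an unadjusted p under 0.05 (4.78% of all genes higher and 0.611% lower). With it C9 was higher (11.2% of all genes) and Masp1 lower (3.3%) at that level. C9 stood at 8.84, 11.65 and 10.32 in wild-type IP and at 7.67, 11.19 and 9.71 in knockout IP, higher in wild type within each number. The difference was 0.75 (95% interval 0.24 to 1.25 with the block, adjusted p = 0.146). It was -0.18 without knockout IP 1 and 0.06 without wild-type IP 2. The knockout inputs of C9 also lay below the wild-type inputs within numbers, by -0.27, -0.93 and -0.65. Specific enrichment of C9 was 0.13. Masp1 differed by -0.63 (-1.13 to -0.13, adjusted p = 0.219 with the block). C9 and Masp1 apart, the members with the smallest p without the block were Proz (0.80) and C8a (0.53) above 0, and C8b (-0.36) and Mbl1 (-0.20) below it. Within numbers Proz differed by 2.47, -0.47 and 0.40, and its mean was 0.27 without knockout IP 1. C8a differed by -0.35, 0.34 and 1.58, and its mean was -0.05 without knockout IP 3. The median of the members was 0.02, against 0.04 over all genes, and 15 were below 0 (45.9% of all genes).

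Levels in the inputs gave no call between the genotypes. In input labelled knockout against wild-type input limma called 0 members and 0 of all genes with and without the number as a block (background 0% in both directions), and 0 members had an unadjusted p under 0.05 without the block (0.0316% of all genes higher and 0.0211% lower). With it Cfb (-0.52), C9 (-0.62) and Vtn (-0.42) had an unadjusted p under 0.05, all with an adjusted p of 1.0, where 0.316% of all genes were lower at that level. With it 0 members were higher (0.242%). Their knockout inputs were lower within each of the 3 numbers, by 0.29 to 0.80 for Cfb, 0.27 to 0.93 for C9 and 0.29 to 0.53 for Vtn. The difference was below 0 in 28 of 35 members (46.1% of all genes), with a median of -0.14 against 0.02. The medians within numbers were -0.08, -0.09 and -0.29. The median was 0.03 without wild-type input 3 and 0.07 without knockout input 1. By smallest p without the block, F12 (-0.29) and Mbl1 (-0.32) followed Vtn, and Masp1 (0.25), Serpinf2 (0.13) and F5 (0.21) led above 0. In 11 members the knockout input was lower in all 3 numbers, against 13% of all genes. In bulk RNA a lower share of cells that express a gene and less RNA per cell cannot be told apart.

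The members differed widely between replicate numbers. The mean over the 4 arrays of a number ranged over a median of 1.26 log2 units across the members, against 0.78 over all genes. In 22 of 35 members (62.9%) the range reached 1 unit (33.8% of all genes) and in 7 (20%) it reached 2 units (4.62% of all genes). Among the 26 other genes of these pathways that passed the filter it reached 1 unit in 21 (80.8%) and 2 units in 6 (23.1%). The range exceeded the wild-type IP minus input difference in 27 members (77.1%, against 77.4% of all genes). It exceeded the input difference between genotypes in 32 (91.4%, against 97.1%). The 3 numbers came in the same order in all 4 groups in 12 members (16.6% of all genes). The order was the same in both inputs in 22 members (62.9%, against 60.3% of all genes). Number 1 was the highest in 0 members and the lowest in 20, against 32.9% and 28.9% of all genes. Number 2 was the highest in 16 members (35.5% of all genes) and number 3 in 19 (31.6%).

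C9 had the widest range, with means of 8.17, 11.13 and 10.01 for numbers 1, 2 and 3, or 7.73-fold between the extremes. Hc had 7.92, 10.28 and 10.13, and Plg had 7.91, 9.85 and 8.91. In these 3 genes number 1 was the lowest in each of the 4 groups. C8a, part of the same terminal complex as C9, had 5.77, 8.44 and 6.00, and number 2 was its highest in each group.

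A different set was high in number 3. Pros1 had 7.46, 7.47 and 9.95, C2 had 8.02, 8.09 and 10.19, and Cfb had 10.66, 10.70 and 12.39. F11 had 8.13, 6.82 and 9.22 and F5 had 7.47, 8.40 and 9.66. In the inputs the summed signal of 10 stellate cell markers was 8.58, 9.23 and 10.87 in numbers 1, 2 and 3, and that of 10 sinusoidal endothelial markers 8.68, 9.04 and 9.50. That of 6 named cholangiocyte markers was 8.40, 8.66 and 9.58. Of the endothelial markers 4 passed the filter, and of the cholangiocyte markers 3. The Kupffer cell and macrophage sum was 12.02, 12.03 and 11.69, and the blood cell and platelet sum 8.03, 8.02 and 8.02. The summed hepatocyte markers were 15.9, 16.2 and 15.8. The part of these cells in the differences between numbers was not tested. At the other end, F12 (10.32, 10.35 and 10.40), Proz (6.19, 6.05 and 6.25) and F2 (12.40, 12.35 and 12.69) varied little between numbers.

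**Figure D3:**
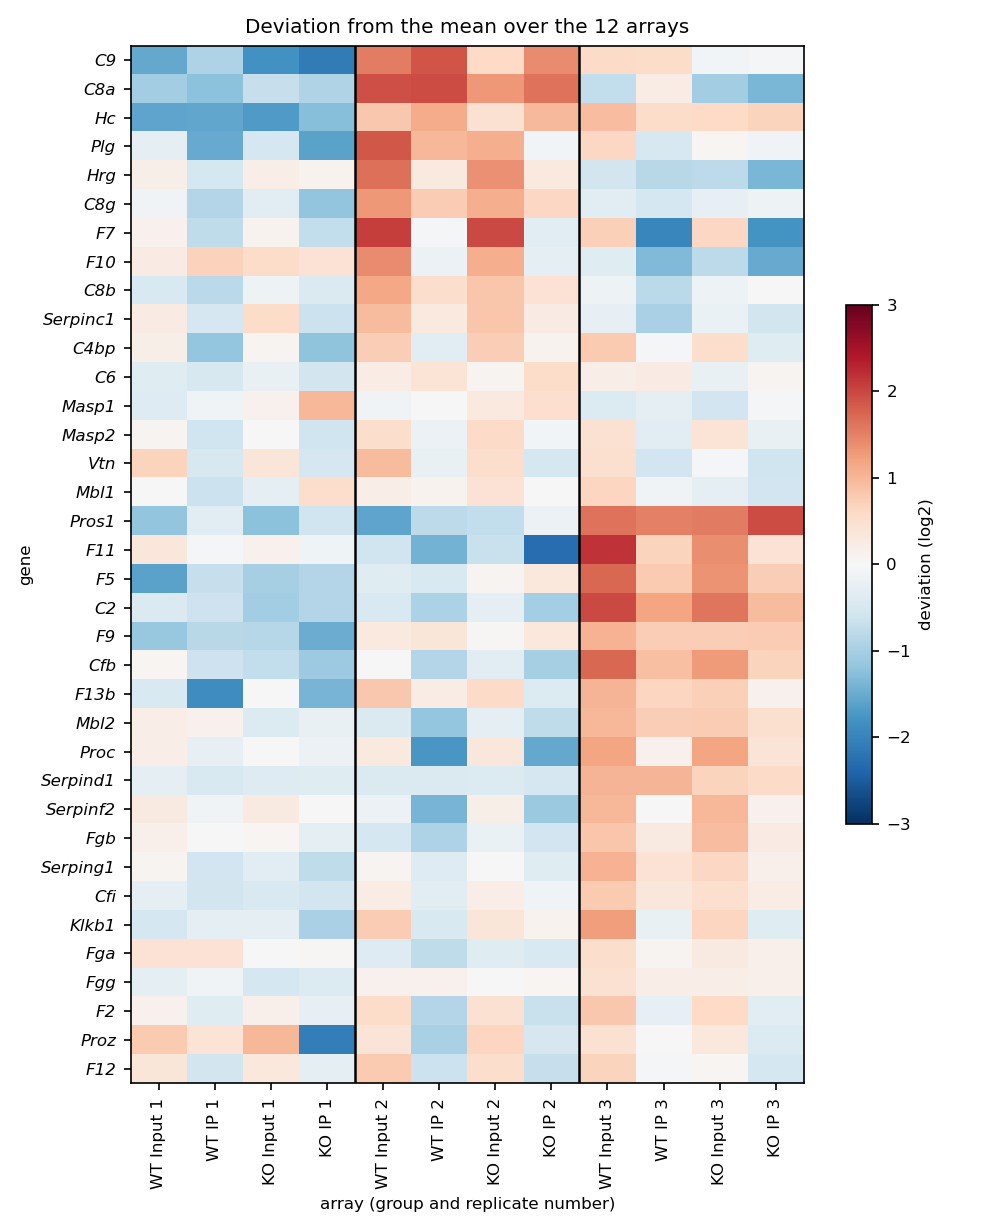
Deviation of each of the 36 named members from its own mean over the 12 arrays, on a log2 scale, with arrays ordered by replicate number and vertical lines between numbers. Genes are ordered by the number with the highest mean. C9 and Hc are low in the 4 arrays of number 1, C8a is high in those of number 2, and Pros1, C2 and F5 are high in those of number 3.

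Of 73 other genes of these pathways, 53 were named in the table and 26 passed the filter. In wild-type IP against input limma called 0 of them without the block, although 3 genes had an unadjusted p under 0.05, 1 higher (3.85%, against 4.58% of all genes) and 2 lower (7.69%, against 6.03%). With the block 1 was higher (3.85%, against 2.41% of all genes) and 5 were lower (19.2%, against 4.61%). The gene that rose with the block was F3, which encodes tissue factor, the receptor of factor VII. F3 went from 7.95, 9.48 and 10.30 in the wild-type inputs to 10.10, 12.58 and 12.50 in the IPs, and from 8.29, 9.06 and 10.81 to 6.80, 8.52 and 10.61 in the knockout. It was higher in the IP in 3 of 3 wild-type preparations and lower in 3 of 3 of the knockout.

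The wild-type difference of F3 was 2.48 ± 0.30 (SE with the block), or 5.58-fold. Its adjusted p was 0.00944 with the block, and 0.403 in the fit on group means. Wild-type IP exceeded knockout IP by 3.08 (8.47-fold; adjusted p = 0.00289 with the number as a block, 0.520 on group means). Specific enrichment was 3.23 ± 0.42 (SE with the block) and did not pass (adjusted p = 0.0650 with the block). With the block, the wild-type difference did not pass without preparation 2 (adjusted p = 0.0843) or 3 (0.0514), and the difference between the IPs did not pass without number 2 (0.102).

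The 5 other genes that were lower in wild-type IP with the block were C1ra, which encodes the classical pathway protease C1r (-2.01), Ggcx (-1.50), Vkorc1 (-1.22), the hepatocyte growth factor activator gene Hgfac (-1.10) and the carboxypeptidase N gene Cpn1 (-0.94). Their adjusted p with the block was 0.0127, 0.0346, 0.0257, 0.0411 and 0.0437 in that order. Ggcx and Vkorc1 encode the carboxylase and the vitamin K reductase that modify factors such as VII, X and prothrombin. In the knockout C1ra (-1.58, adjusted p = 0.0257) and Vkorc1 (-1.04, adjusted p = 0.0399) passed with the block as well. Signal of C1ra was 8.85, 9.58 and 10.51 in the wild-type inputs and 7.32, 6.99 and 8.59 in the IPs, without overlap.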

How the data were processed

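The deposited table gives 1 log2 value per probe set and array, with the scale read from the range of the values. For these log2 values, the authors' background correction, normalization and summary over probes are not given in sources used here. Its 16539 probe sets include 64 controls. By the platform annotation 15780 carry 1 gene symbol, 0 carry several and 695 others are unnamed here. Genes with a mean at or above the 40th percentile of all probe sets (5.57) were tested. Arrays have no depth, and their number limits the precision.

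All 12 arrays were fitted with limma 3.58.1 in R 4.3.3 on the 4 group means (8 residual degrees of freedom). The alternative fit had a replicate block, the preparation for IP against input and specific enrichment (4 residual degrees of freedom) or the replicate number between genotypes (6). Tests were two-sided, with Benjamini-Hochberg adjustment over 9496 genes and a threshold of 0.05. Errors (SE) and 95% intervals come from these fits. A check on simulated data covered the calls and differences of IP against input and of specific enrichment. It did not cover the SE, the intervals or the block on the number.

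The numbers were used to pair the arrays. The series text states that each preparation was split into input and IP. After removal of group means, same-numbered arrays of different groups correlated at 0.45 to 0.94 (18 pairs), and differently numbered ones at -0.71 to 0.07 (36 pairs).

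Other alternatives were quantile normalization, other filters, an intensity trend, fits on 2 groups only and leaving out arrays. Fits with the block that leave out a preparation or number were added after the data were seen. The members and lists were chosen with earlier results of these data known. Values are given per array for members called with or without the block, up to 6 by size, and Cfb, the 7th, was added after its values were seen. Where 0 were called, the 3 members with the smallest p in each direction are named, and other genes of the pathways are named where called. The genes named for their spread over numbers were chosen after their values were seen. Python 3.11.15 with matplotlib 3.10.9 was used for the figures.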

Additional observations from a re-analysis of the deposited data

Results flagged for a closer look

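The IP minus input differences of F3 ran in opposite directions in the genotypes, with a mean of 2.48 in wild type (higher in 3 of 3 preparations) and -0.74 in knockout (lower in 3 of 3). The difference between genotypes was tested by limma and did not pass (adjusted p = 1.0 without the block and 0.0650 with it). Plaur, which encodes the urokinase receptor, also had means of opposite sign, with 0.29 in wild type and -0.74 in knockout. Its wild-type preparations differed by 0.01, 0.62 and 0.25, so the first was near 0. By limma with the block neither difference passed (adjusted p = 0.380 in wild type and 0.0630 in knockout). Its specific enrichment of 1.03 did not pass either (adjusted p = 1.0 without the block and 0.357 with it). No member had differences of opposite sign in every preparation of the 2 genotypes.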

How the results depend on the processing

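With the replicate block 7 members were called in wild type and 3 in knockout, against 0 in each without it, and no other comparison gained a call. With the block, quantile normalization left 1 call in wild type and 0 in knockout, and leaving out a preparation or a replicate number left 0 or 1 in either genotype. No alternative tried turned the direction of a called member. Leaving out 1 array in turn, the members' median ranged from -0.79 to -0.26 in wild type, -0.62 to -0.24 in knockout, -0.14 to 0.16 between the IPs, -0.34 to 0.068 between the inputs and -0.32 to 0.072 for specific enrichment. Quantile normalization, with or without the block, gave medians of -0.26 in knockout, -0.032 between the IPs and -0.21 for specific enrichment. With the block, the median between the IPs was 0.11 without number 2 and -0.024 without number 3, and that of specific enrichment was -0.18 without number 1. Calls of IP against input rest on 3 preparations a genotype.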
